A study of Homo sapiens with 12 samples.

Results

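Cathepsins are proteases that act mainly in lysosomes, the acidic compartments in which a cell breaks down proteins taken in from outside or delivered by autophagy. They are made as inactive precursors, tagged with mannose 6-phosphate or carried by other sorting receptors, and cut to the active form on the way to or inside the lysosome. Most are cysteine proteases, CTSD is an aspartic protease and CTSA is a serine carboxypeptidase. Heart muscle cells depend on this route to clear worn proteins and organelles, and cystatins keep cysteine cathepsins that escape the lysosome in check.

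Described here are 10 human cathepsin genes (CTSA, CTSB, CTSC, CTSD, CTSF, CTSH, CTSK, CTSL, CTSS and CTSZ) of 60583 gene names in the deposited table, found by symbol. They were chosen by family name with earlier results from these libraries in view, the lower CTSB level on the conductive scaffold among them. The scaffold values below are therefore a description, their counts support nothing about the family, and the p-values are those of fits across all genes. The filter on low counts kept 9 of the 10, and CTSF, at 0 counts in every library, was not tested.

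The cells were cardiomyocytes derived from RUES2, an established human embryonic stem cell line, with wild-type genotype in all groups. At day 50 of differentiation they were moved for 3 days onto electrospun fibre scaffolds, in RPMI with B27 and insulin. The control group was on non-conductive 8% PVA (polyvinyl alcohol). The other group was on 9.75% PEDOT:PSS/PVA, a blend with the conducting polymer PEDOT:PSS, called PEDOT here. Each group held 3 biological replicates with 2 technical libraries each, 12 libraries in all, and all come from 1 cell line. The labels do not say whether biological replicates are separate differentiations, so p-values measure the spread between these samples, which may be technical.

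The cells were released with trypsin, total RNA was sequenced after ribosomal RNA removal, and library totals ran from 19.12 to 30.95 M counts. The technical libraries were added up to 6 sums of 44.49 to 57.49 M. Levels are given as CPM, the usual library-scaled counts, corrected for library size and composition, and sums and libraries were scaled separately. All 12 cardiomyocyte markers examined were measured, with a summed level of 59505 to 80835 CPM on PVA and 68869 to 89495 CPM on PEDOT. Most of this sum, which is not corrected for gene length, was TTN (mean 45270 CPM) and MYH6 (mean 18474 CPM). Fibroblast markers were also present. Their summed level was 964.8 to 4116 CPM on PVA and 964.27 to 7382 CPM on PEDOT, lowest in replicate 2 of both scaffolds. Of 14 macrophage and blood markers, 4 passed the filter, C1QA and C1QB were at 0, and the summed level was 4.20 to 6.47 CPM on PVA and 3.23 to 4.77 CPM on PEDOT. In bulk RNA, fewer cells of a type and less RNA per cell cannot be told apart.

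CTSB, a cysteine protease that cuts both inside proteins and from their ends, was by far the most abundant cathepsin. Per kilobase of exon, it averaged 83.8 CPM per kb over the 6 sums, with a range of 57.0 to 137.8. This placed it at the 98.87th percentile of the 21298 tested genes on that scale. The exon length joins all annotated exons of a gene and can exceed the length of the RNA present. Genes with many annotated exons may thus be placed too low, and levels per kilobase compare genes only roughly. All 6 CTSB sums lay above all sums of the next gene. CTSB alone took 54.3 to 72.7% of the counts of the 10 cathepsins, and 37.9 to 55.4% of their level per length.

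A group of 4 genes followed at similar levels per kilobase. In CPM they spread more widely, from 37.8 for CTSL to 165.6 for CTSA. CTSA, the protective protein that holds lysosomal galactosidase and neuraminidase in an active complex, averaged 28.3 CPM per kb. CTSD, the main lysosomal aspartic protease, averaged 27.96 CPM per kb. CTSZ, a cysteine carboxypeptidase, averaged 20.7 CPM per kb. CTSL, a cysteine endoprotease whose loss is known to cause cardiomyopathy in mice, averaged 20.4 CPM per kb. Neighbours in this order overlapped across the 6 sums, while all CTSA and CTSD sums lay above all CTSL sums.

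The low group began with CTSC, which removes dipeptides and activates the granule proteases of immune cells, at 2.07 CPM per kb. It lies on chromosome 11 from 88293592 to 88337761 (hg38, minus strand). CTSH, a cysteine aminopeptidase, averaged 1.78 CPM per kb, and CTSK, the collagen-degrading protease of osteoclasts, averaged 1.34 CPM per kb. Per kilobase these 3 genes overlapped in turn, and all their sums lay below those of CTSL. CTSC has the longest exon length of the family, 11395 bases, and in CPM it averaged 23.6, nearer to CTSL at 37.8. CTSS, the cysteine protease that antigen-presenting cells use to trim the invariant chain of MHC class II, was at 0.122 CPM per kb, with 147 counts in all 12 libraries together.

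**Figure D1:**
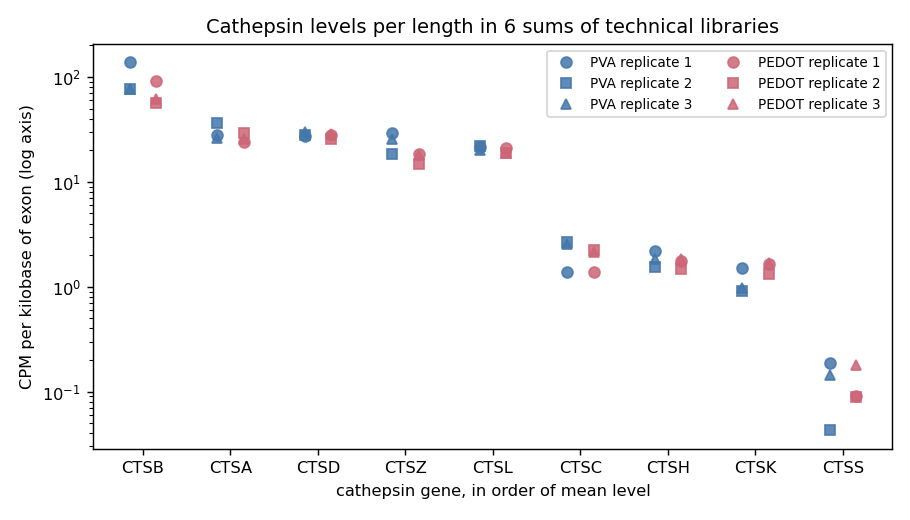
Level of 9 cathepsin genes in CPM per kilobase of exon (log axis), in order of the mean. Points are the 6 sums of technical libraries, coloured by scaffold and shaped by replicate number. CTSB stands above the others at 57.0 to 137.8 CPM per kb, CTSA, CTSD, CTSZ and CTSL share a band, and CTSS is lowest. CTSF, at 0 in all sums, is not drawn.

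CTSF, a cysteine protease with a long propeptide, lies on chromosome 11 from 66563464 to 66568841 (hg38, minus strand). Its 2905 exonic bases held 0 counts in each of the 12 libraries, and whether the transcript was absent or not counted cannot be told from the table. A count of 0 in a sum allows up to 3 counts, or 0.0537 to 0.0652 CPM, for counting error only. Its exons share no base with another gene on either strand. None of its 3138 words of 50 bases occurs in transcripts of another gene in GENCODE, searched in an earlier release than the one counted. The nearest gene with counts toward lower coordinates was ACTN3, 130 bases away with 13118 counts, and toward higher coordinates CCDC87, 21335 bases away with 968 counts. Among human cathepsins outside the 10, CTSG was also at 0 counts, CTSE had 23 and CTSW had 11.

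CTSD carries a limit of its own. It lies on chromosome 11 from 1752755 to 1764573 (hg38, minus strand), and 1298 of its 3079 exonic bases (42.2%) belong also to AC068580.4 on the same strand. Reads that fall in 2 genes were left out of the counts, so the CTSD level is lowered by an amount the table does not give. AC068580.4 itself had 276 counts. CTSA, on chromosome 20 from 45890144 to 45898820 (plus strand), overlaps NEURL2, PLTP and AL008726.1 on the opposite strand only, and the counting used strand.

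The upstream sequence of these genes can be set beside their levels. Many lysosomal genes carry the letters CACGTG, the core of the element that the MiT/TFE transcription factors bind. RefSeq promoter windows (GRCh38.p14, 250 bases before to 50 after the start) were at hand for 7 of the 10 members, and not for CTSB, CTSK and CTSS. CACGTG, which reads the same on both strands, occurred in the windows of CTSA, CTSD and CTSF, and in 7.256% of 35116 promoter windows of that length. The letters were not found in the windows of CTSC, CTSH, CTSL and CTSZ. The extended letters TCACGTGA, which contain the core, were found in CTSA once and in 0.98% of all windows, and GTCACGTGAC in none of the 7 and in 0.353% of all. The 5 matches are shown on the strand of the gene with the core in capitals, because CTSA, CTSD and CTSF share them while CTSA and CTSD are among the most abundant of the family and CTSF is listed at 0.
CTSA, chr20:45891281-45891310, core starting 42 bases before the start: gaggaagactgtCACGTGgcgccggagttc
CTSA, chr20:45891298-45891327, core starting 25 bases before the start: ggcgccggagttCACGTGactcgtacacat
CTSD, chr11:1763957-1763986, core starting 47 bases before the start: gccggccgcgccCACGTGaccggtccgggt
CTSF, chr11:66568712-66568741, core starting 123 bases before the start: acatataacaagCACGTGatagaggtcagt
CTSF, chr11:66568640-66568669, core starting 51 bases before the start: ccctgcgcgcccCACGTGcctcctgtaaac

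CTSZ, on the minus strand of chromosome 20 from 58995185 to 59007254, has no such match in the window. Its 250 bases upstream hold 81.2% G and C against a median of 58.0% over all 35116 promoters, and they are printed because CTSZ is 1 of the 2 genes that the results on scaffold turn on.
CTSZ, chr20:59007255-59007504, minus strand: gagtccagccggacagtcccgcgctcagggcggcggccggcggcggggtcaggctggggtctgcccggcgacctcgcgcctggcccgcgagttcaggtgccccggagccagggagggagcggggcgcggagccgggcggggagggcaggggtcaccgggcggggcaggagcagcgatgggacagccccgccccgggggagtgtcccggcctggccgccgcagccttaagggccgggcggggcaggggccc
A match is a description of letters, and no binding was measured.

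The study compared gene expression between the conductive and the non-conductive scaffold. With the scaffold as the only term in edgeR's quasi-likelihood test, 0 of 9 tested cathepsins and 0 of 21298 genes (0%) passed an adjusted p of 0.05. Of all genes, 190 had an unadjusted p below 0.05, and DESeq2 also called 0. The 3 PEDOT sums did not lie all below the 3 PVA sums for any cathepsin, which they did for 2.31% of tested genes.

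Same-numbered replicates of the scaffolds varied together, so the comparison was also made within replicate numbers, here called the paired fit. It called 2 of the 9 tested cathepsins, CTSB and CTSZ, both lower on PEDOT, and it called 0.197% of all tested genes lower. It called 0 cathepsins higher, and 15 of the 21298 tested genes higher. The same direction held in every one of the 3 pairs for CTSA, CTSB, CTSC, CTSH, CTSL and CTSZ (lower on PEDOT) and for CTSK (higher on PEDOT), of which 5 did not pass the test. Of all tested genes, 15.5% were lower on PEDOT in all 3 pairs, and the share higher in all 3 pairs was not computed. The 9 tested cathepsins had a median paired log2 fold change of -0.14 and 8 lay below 0, against a median of -0.0037 and 51.2% below 0 over all tested genes. The median over the cathepsins was -0.20 in pair 1, -0.22 in pair 2 and -0.053 in pair 3.

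For CTSB the libraries of PVA replicate 1 stood at 1018 and 1011 CPM, those of replicate 2 at 563 and 563 CPM and those of replicate 3 at 571 and 551 CPM. On PEDOT the libraries of replicate 1 stood at 619 and 721 CPM, those of replicate 2 at 371 and 467 CPM and those of replicate 3 at 428 and 475 CPM. Within each replicate number both PEDOT libraries lay below both PVA libraries, but PEDOT replicate 1 lay above PVA replicates 2 and 3, so the scaffolds overlap as groups. As sums, the PVA replicates of CTSB averaged 713 ± 256 CPM (SD, n = 3) and the PEDOT replicates 514 ± 138 CPM (SD, n = 3). The differences by pair were -0.59, -0.45 and -0.31 on the log2 scale.

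The paired log2 fold change of CTSB was -0.45 ± 0.072 (SE), or 1.36-fold higher on PVA, with an edgeR adjusted p of 0.0200. Without the block it was -0.47 ± 0.29 with an adjusted p of 0.99999, and it moved to -0.14 without PVA replicate 1 and to -0.71 without PEDOT replicate 1. The call was lost when PEDOT replicate 1 library 2 (adjusted p 0.0694), PEDOT replicate 1 library 3 (0.0898), PEDOT replicate 2 library 1 (0.0538), PEDOT replicate 3 library 1 (0.0571) or replicate pair 2 (0.142) was left out. The lower-numbered technical libraries alone gave a log2 fold change of -0.58 and the higher-numbered ones alone -0.32 (adjusted p 0.225). Lower and higher are taken within each replicate, so each set mixes library numbers. In replicate pair 2, for example, the lower-numbered set compares PVA library 2 with PEDOT library 1. CTSB lies on the minus strand of chromosome 8 from 11842524 to 11869448 (hg38), and its exons overlap no other gene.

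CTSZ showed the same kind of pattern at a lower level. Its PVA libraries stood at 54.98 and 66.6 CPM in replicate 1, 35.9 and 37.99 in replicate 2, and 55.6 and 48.1 in replicate 3. Its PEDOT libraries stood at 32.5 and 42.4 CPM in replicate 1, 30.7 and 30.8 in replicate 2, and 36.1 and 37.6 in replicate 3. Again both PEDOT libraries lay below both PVA libraries at every replicate number, and the groups overlapped only through PVA replicate 2. This separation by library held for CTSB and CTSZ among the cathepsins and for 1.68% of tested genes. The PVA sums of CTSZ averaged 49.7 ± 11.3 CPM (SD, n = 3) and its PEDOT sums 35.1 ± 3.90 CPM (SD, n = 3).

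The paired log2 fold change of CTSZ was -0.49 ± 0.077 (SE), or 1.40-fold higher on PVA, with an edgeR adjusted p of 0.0191, and by pair it was -0.66, -0.29 and -0.50. The call was lost without PVA replicate 1 library 3 (adjusted p 0.0539), PVA replicate 2 library 3 (0.0518), PVA replicate 3 library 1 (0.0567), PEDOT replicate 1 library 2 (0.0657) or PEDOT replicate 1 library 3 (0.146), and with the lower-numbered (0.0999) or the higher-numbered (0.118) technical libraries alone. Neither CTSB nor CTSZ was called when genes below a mean CPM of 5 were left out (adjusted p 0.128 and 0.201) or under upper-quartile scaling (0.0798 and 0.132). Their direction was the same under all 23 alternatives of the paired fit. With both PEDOT libraries below both PVA libraries in every pair, leaving out libraries or pairs could hardly turn it. The other alternatives refit the same sums.

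The other cathepsins on the low side of 0 did not pass the paired test. CTSA sums of replicates 1 to 3 stood at 162.4, 212.9 and 155.0 CPM for PVA and at 141.3, 170.5 and 151.3 CPM for PEDOT, a paired log2 fold change of -0.19 ± 0.069 (adjusted p 0.455). CTSC sums stood at 15.9, 30.2 and 29.1 CPM for PVA and 15.8, 25.7 and 24.7 CPM for PEDOT (-0.16 ± 0.081, adjusted p 0.638). For both genes the replicate number spread the sums more widely than the scaffold did. CTSL, on chromosome 9 from 87726109 to 87731469, ran from 37.5 to 40.6 CPM on PVA and 34.8 to 39.2 CPM on PEDOT (-0.11 ± 0.071, adjusted p 0.763). CTSH, on chromosome 15 from 78921058 to 78949574, ran from 9.15 to 12.98 CPM on PVA and 8.63 to 10.8 CPM on PEDOT (-0.14 ± 0.10, adjusted p 0.802).

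Over the 6 sums, CTSD was the steadiest of the tested cathepsins. Its sums stood at 84.85, 86.9 and 91.3 CPM for PVA and at 86.9, 78.7 and 87.95 CPM for PEDOT, with a paired log2 fold change of -0.054 ± 0.064 (adjusted p 0.906). The standard deviation of its log2 CPM over the 6 sums was 0.072, against 0.46 for CTSB, 0.42 for CTSC and 0.36 for CTSZ. Single libraries were less steady. The technical libraries of a CTSD sum differed by a median of 0.17 and by up to 0.31 on the log2 scale.

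CTSK was the only tested cathepsin with a higher mean level on PEDOT. Its sums stood at 2.77, 1.65 and 1.79 CPM for PVA and at 3.01, 2.41 and 3.06 CPM for PEDOT. The paired log2 fold change was 0.47 ± 0.18 with an adjusted p of 0.503. Technical libraries of 1 replicate differed by up to 0.83 on the log2 scale, and the lower-numbered libraries alone gave 1.04 while the higher-numbered ones gave -0.10. CTSK and CTSS lie near each other on chromosome 1, from 150796208 to 150808260 and from 150730188 to 150765792. CTSS sums held 8 to 35 counts on PVA and 17 to 34 on PEDOT, and its paired log2 fold change of -0.017 ± 0.39 had no stable direction, with -0.97, 0.92 and 0.28 by pair.

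**Figure D2:**
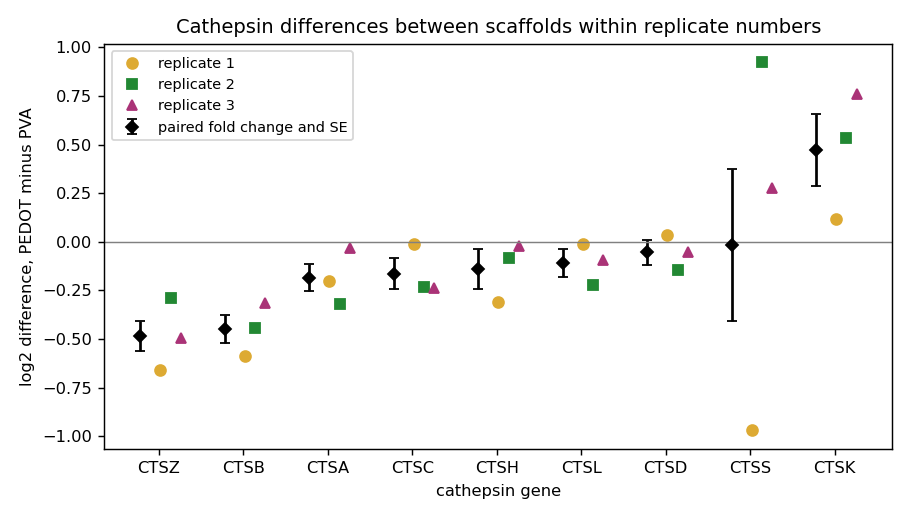
Log2 difference between scaffolds (PEDOT minus PVA) for the 9 tested cathepsins. Diamonds with bars are the paired log2 fold change and its SE, and the other symbols are the differences within replicate numbers 1 to 3. CTSZ (-0.49) and CTSB (-0.45) are the lowest, CTSK (0.47) is the highest, and the 3 CTSS values spread from -0.97 to 0.92.

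The summed level of the 10 cathepsins was 1387, 987 and 941 CPM for PVA and 1006, 769 and 804 CPM for PEDOT, so PEDOT replicate 1 lay above PVA replicates 2 and 3. Without CTSB the sums were 379, 419 and 378 CPM for PVA and 335, 352 and 351 CPM for PEDOT. With CTSB removed, the highest PEDOT sum (352 CPM) lay below the lowest PVA sum (378 CPM). CTSA, which the paired fit did not call, held the largest part of each of these sums. How often sums of other gene sets separate in this way was not computed, so this is a description only.

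Differences between replicate numbers were common among all tested genes, cathepsins included. Tested on the 6 sums with the scaffold in the model, 4 of the 9 tested cathepsins differed between replicate numbers in edgeR at an adjusted p of 0.05, while 31.8% of all tested genes did. CTSB was highest in replicate 1, with a mean over the scaffolds of 840 CPM against 493 in replicate 2 and 508 in replicate 3 (adjusted p 1.39e-05). CTSC ran the opposite way, at 15.9 CPM in replicate 1 against 27.96 and 26.9 (adjusted p 4.0e-05). CTSZ was lowest in replicate 2, at 34.0 CPM against 48.6 and 44.5 (adjusted p 0.00307), though it did not pass in the lower-numbered technical libraries taken alone (adjusted p 0.0675). CTSA was highest in replicate 2, at 191.7 CPM against 151.8 and 153.2 (adjusted p 0.00994).

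CTSD, CTSH, CTSK, CTSL and CTSS did not pass this test, CTSH with the smallest adjusted p among them, 0.0643. The log2 difference of replicate 2 from replicate 1 was -0.76 ± 0.089 for CTSB and 0.81 ± 0.10 for CTSC. Each was larger in size than that gene's own difference between scaffolds. All 12 genes of the fibroblast list differed between replicate numbers, and the summed level of the list was lowest in replicate 2. POSTN of that list was highest there, at 43.2 CPM against 14.8 in replicate 1 and 17.8 in replicate 3. The summed level of the MHC class II genes was highest in replicate 1. The part of these lists in the cathepsin levels was not tested.

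**Figure D3:**
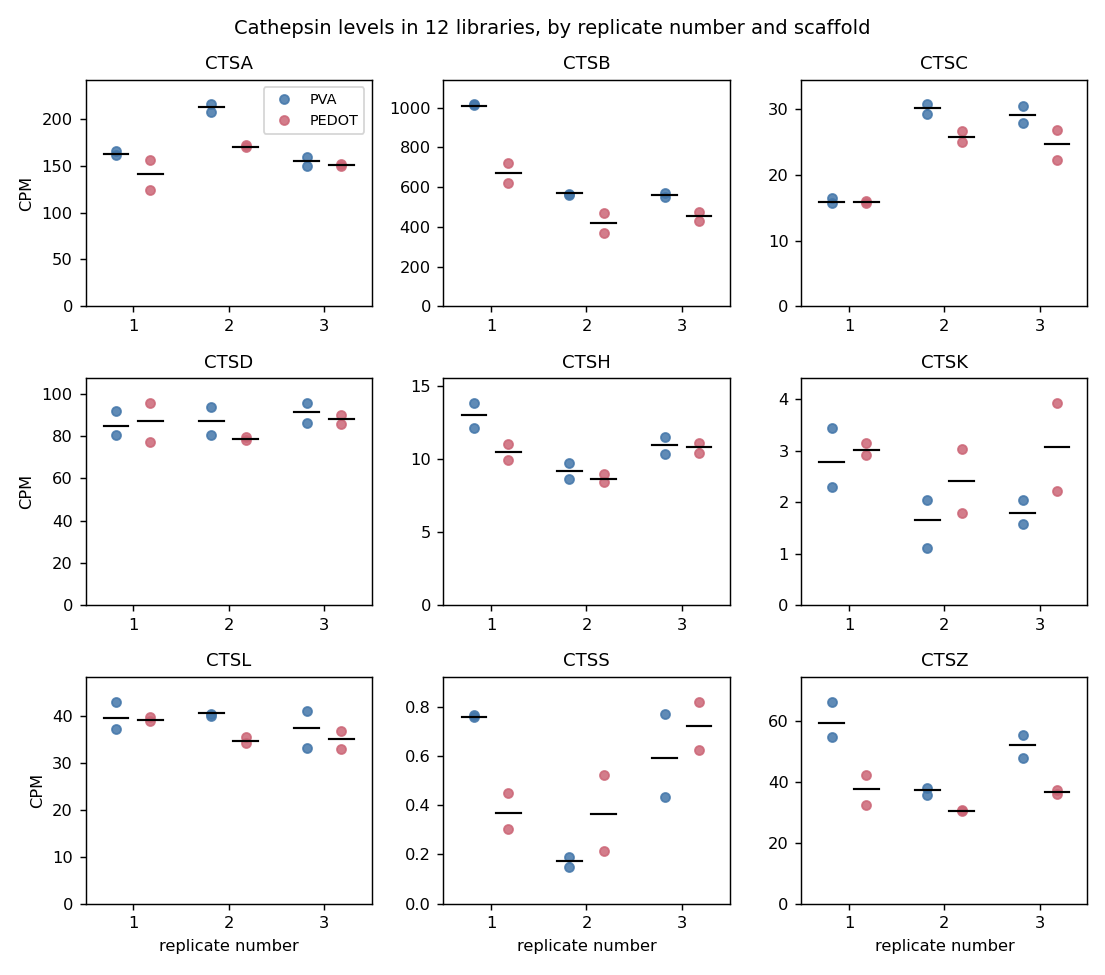
CPM of the 9 detected cathepsins in the 12 libraries, by replicate number. Points are technical libraries, blue for PVA and red for PEDOT, and black lines are the sums of 2 libraries. CTSB is highest and CTSC lowest in replicate 1 on both scaffolds, and the PEDOT points of CTSB and CTSZ lie below the PVA points at each replicate number.

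Whether the scaffold difference itself varied between replicate numbers was tested on the 12 libraries, whose residual is technical spread only. In edgeR this interaction called 0 of the 9 tested cathepsins and 0.302% of the 18546 genes tested. CTSS had the smallest unadjusted p of the cathepsins at 0.0394 (edgeR adjusted p 0.441), and CTSB had an adjusted p of 0.615.

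Across the 12 libraries, which share 3 replicate numbers and so are not independent, the log2 levels of CTSB correlated with those of CTSZ at r = 0.77 and of CTSH at 0.709, and with those of CTSC at -0.662. CTSH and CTSZ correlated at 0.785. Among 11783 other genes at a mean CPM of at least 5, the levels most like CTSB were those of TRIM8 (r = 0.960), NLK (0.956) and ARPC2 (0.954). The closest to CTSC were TMEM164 (0.977), SLC25A20 (0.967) and NPPA (0.966), and the closest to CTSZ were TDRD7 (0.946), PPIA (0.941) and TAPBP (0.941). These values describe likeness over these libraries.

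The remaining human cathepsins and the genes around the family in the lysosome were looked at in the same fits. CTSO, a cysteine protease, had a paired log2 fold change of -0.29 ± 0.13 (edgeR adjusted p 0.576), and CTSV, the close relative of CTSL, had -0.19 ± 0.17 (adjusted p 0.857). Both differed between replicate numbers, with adjusted p-values of 0.00244 and 0.00168. Of 10 cathepsin inhibitor genes 2 were tested, the cystatins CST3 (-0.084 ± 0.063) and CSTB (-0.11 ± 0.092), and 0 were called. Of 15 genes for cathepsin maturation and sorting, 0 were called and 10 lay below 0, with SCARB2, the receptor that carries glucocerebrosidase, at -0.18 ± 0.063, the class II invariant chain CD74 at -0.38 ± 0.14, and GNPTAB, which starts the mannose 6-phosphate tag, at -0.14 ± 0.077.

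Of 29 other lysosomal hydrolases tested, 0 were called and 22 lay below 0, with a median paired log2 fold change of -0.057 and pair medians of -0.036, -0.14 and -0.0072. The smallest p-values belonged to the acid phosphatase ACP2 (-0.17 ± 0.067), the sphingomyelinase SMPD1 (-0.16 ± 0.066) and the arylsulfatase ARSB (-0.15 ± 0.062). Of 20 lysosomal membrane and proton pump genes, 0 were called and 19 lay below 0, with a median of -0.071 and pair medians of 0.025, -0.18 and -0.032, among them CD63 (-0.17 ± 0.067), LAMP1 (-0.16 ± 0.064) and the channel MCOLN1 (-0.18 ± 0.095). The MiT/TFE factors TFE3 (-0.10 ± 0.064), MITF (0.018 ± 0.062) and TFEB (-0.0035 ± 0.071) were not called.

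The 7 tested genes of MHC class II antigen presentation, the pathway that CTSS and CTSL serve, all lay below 0 with a median of -0.38, and 0 were called. The class II activator CIITA was at -0.50 ± 0.18 and HLA-DPB1 at -0.32 ± 0.15. The summed level of the whole list was 11.998 to 44.4 CPM on PVA and 9.66 to 28.1 CPM on PEDOT.

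**Figure D4:**
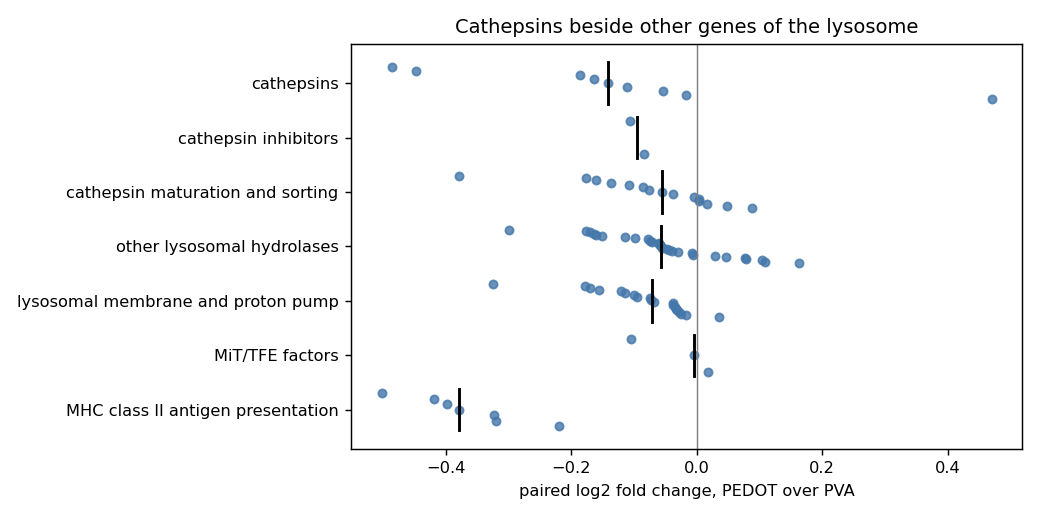
Paired log2 fold change (PEDOT over PVA) of each tested gene in 7 gene lists, with a black line at the list's median. The cathepsins have a median of -0.14, the other hydrolases -0.057, the membrane and pump genes -0.071, the MiT/TFE factors -0.0035 and the MHC class II genes -0.38.

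Among markers of other cell types, the paired fit called 2 of 10 smooth muscle and pericyte genes lower on PEDOT, RGS5 (-0.46 ± 0.064, edgeR adjusted p 0.00795) and ACTA2 (-0.40 ± 0.071, adjusted p 0.0334). Of all 21298 tested genes, it called 0.197% lower. In the smooth muscle and pericyte list 6 of 10 lay below 0, with a median of -0.073 and pair medians of 0.11, -0.18 and -0.22. This list summed to 1531 to 2585 CPM on PVA and 1233 to 2275 CPM on PEDOT. A large part of that was ACTA2 and RGS5 themselves, with means of 983 and 327 CPM over the 6 sums. The paired fit called 1 of 12 cardiomyocyte genes higher, MYH7 (0.95 ± 0.17, adjusted p 0.0382), and 15 of 21298 tested genes. The MYH7 difference varied between pairs, at 1.71, 0.86 and 0.30, and the interaction called it (edgeR adjusted p 0.0222). The paired fit called 0 of 12 fibroblast, 9 endothelial, 8 endoderm and epithelium, and 4 macrophage and blood genes. The cardiomyocyte list had a median of 0.19 and pair medians of 0.30, 0.099 and 0.056, with 2 of its 12 genes below 0. The median of the fibroblast list was 0.34 and that of the endothelial list -0.18. That of the endoderm and epithelium list was -0.29 and that of the macrophage and blood list -0.30. By pair the medians were 0.84, 0.056 and 0.098 for the fibroblast list, 0.37, -0.60 and 0.022 for the endothelial list, 0.016, 0.14 and -1.27 for the endoderm and epithelium list, and -0.56, -0.24 and 0.036 for the macrophage and blood list. The part of these cell types in the cathepsin values was not tested.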

How the data were processed

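Counts of read pairs for each gene name were deposited for 12 libraries without normalization by the authors. Per the file headers they were made with featureCounts 2.0.1 for paired ends and reverse-stranded libraries (strand setting 2), with GENCODE release 33. The command names no option for reads that match several places or genes, so these were left out. Per the submitters' processing notes, the tools were STAR, FastQC, featureCounts, edgeR and DESeq2 on hg38, and the aligner's version is not given in the sources used here.

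Technical libraries were added up per biological replicate, 3 sums against 3. The filter was filterByExpr (minimum count 10, minimum total 15), the scaling TMM and the test edgeR 4.0.16 in R 4.3.3, with glmQLFit and glmQLFTest. Tests were two-sided, with Benjamini-Hochberg adjustment over 21298 genes at a threshold of 0.05. An SE is the size of a log2 fold change over the root of its F statistic. Log2 CPM used a prior count of 2, and per-length levels divide CPM by the table's exon length, which joins all annotated exons. The paired fit was tried on counts simulated from its own estimates. These took the pairing and the spread as given, so the trial cannot check either.

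Replicate numbers are shared between scaffolds. Each sum's deviation from the mean of its scaffold was correlated with those on the other scaffold over all genes. The coefficients were 0.678, 0.703 and 0.503 for equal numbers, so the numbers were taken to pair the samples. For unequal numbers they were -0.609 to -0.00497. These are not separate evidence, because the deviations within a scaffold add up to 0. No label says what a number shares, so the pairing rests on the values. DESeq2 1.42.0, other scalings, other filters and leaving out libraries were alternatives.

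The members and all gene lists were chosen with earlier results of these data known. All 10 members are named, with up to 3 genes of smallest paired p per list, and, for CTSB and the next 2 most variable members at a mean CPM of at least 5, the 3 genes with the highest correlation. Promoter sequences come from RefSeq (GRCh38.p14), whose coordinates are printed with that build, and gene coordinates from the deposited table on hg38.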

Additional observations from a re-analysis of the deposited data

How the results depend on the processing

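The calls rest on the pairing and are fragile. With the replicate block the count rose from 0 to 57 genes and from 0 to 2 cathepsins. With that replicate block, all-gene counts were 96 in DESeq2, 37 with library size only, 389 with every gene that has a count, 1 with a mean CPM of 5 or more, 1 with upper-quartile scaling (chosen after seeing the data), 16 with the lower-numbered and 4 with the higher-numbered technical libraries, and 4 to 284 with a library or pair left out. Cathepsins called were 0 with the CPM filter, 0 with upper-quartile scaling, 1 with the lower-numbered and 0 with the higher-numbered libraries, and 0 to 2 with a library or pair left out. CTSB was called in 8 and CTSZ in 7 of 12 fits without 1 library. Direction turned for uncalled members only, and for CTSB and CTSZ leaving out libraries could hardly turn it. Without the block, leaving out a replicate gave -0.47 to 0.32 for CTSS and -0.43 to 0.0087 for CTSC. With the block CTSS gave 0.059 in DESeq2, 0.15 with the lower-numbered libraries and -0.33 to 0.57 in the leave-outs, while with the higher-numbered libraries CTSD gave 0.019 and CTSK -0.10. Replicate number called 3 to 5 cathepsins under its alternatives. The interaction called 0 in each, and of all genes 56, or 22 with the CPM filter and 200 in DESeq2. CTSS, at 147 counts, is limited by depth. The cause of these changes was not tested.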
